A study of Mus musculus with 12 samples.

Results

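Complexins are small cytosolic proteins that bind the assembled release complex of a synaptic vesicle, and the genes described here are the 4 complexins together with 6 genes of the machinery that they act on, which are Snap25, Stx1a, Vamp1, Vamp2, Syt1 and Syp. The 10 genes were chosen by gene symbol and known function, with earlier results of these data in view and with no record of which comparison was used, so their fold changes and adjusted p-values below describe where they stood in a fit over all genes and are not independent evidence. All 10 were found among the 35976 genes of the count table, and all 10 had enough reads to be tested in each comparison.

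A synaptic vesicle fuses when a vesicle SNARE protein (synaptobrevin, encoded by Vamp1 and Vamp2) zips together with a plasma membrane pair (syntaxin and SNAP-25), and synaptotagmin 1 on the vesicle senses the calcium that triggers the final step. Complexins clamp and then promote that step. In the retina, complexins 1 and 2 are known from conventional synapses of inner retinal neurons, with complexin 3 also in amacrine cells, whereas complexins 3 and 4, which carry a lipid anchor, are the forms of the ribbon synapses of photoreceptors and bipolar cells.

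The libraries were QuantSeq 3′ RNA-seq of whole mouse retina in 4 groups of 3, in which C57BL/6 mice (labelled WT) and Caspase1 knockout mice (labelled Casp1 KO, Caspase-1 being an inflammatory protease) were kept in normoxia or went through oxygen-induced retinopathy (OIR). In OIR, young pups spend several days in high oxygen, which stops and prunes retinal vessels, and then return to room air, where the poorly perfused retina becomes hypoxic. The study's methods, written for C57BL/6 pups, give 75% oxygen from postnatal day 7 to day 12 and retinas taken at day 15, and the labels give 3 days after OIR for both genotypes. The age and oxygen level of the knockout pups, the kind of knockout allele and the number of mice per library are not given in the sources used here, so the p-values measure the spread between libraries, which may be technical.

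Reads of Casp1 itself went against the labels: the 6 with the WT label held 7 reads in all, and the 6 with the Casp1 KO label held 126. Whether the 3′ tags lie inside the deleted part is not known, and whether labels were exchanged was not tested. Every genotype below is therefore the one on the label, and the sign of each difference between the labels rests on it. Library totals ran from 3391203 to 22815830 reads, the largest (WT normoxia replicate 2) being 4.03 times the next, so that 3 reads stood for 0.131 to 0.885 CPM (reads scaled to a common library total), and the 10 genes took 0.509% to 0.595% of the reads of a library. WT OIR replicate 3 stood apart from replicates 1 and 2 of its group, its counts differing from theirs by a chi-square of 14.03 and 13.2 times the degrees of freedom, against 3.48 to 9.34 times for the other replicate pairs, and results that turn on it are given with and without it. All levels below are CPM after TMM scaling over the 12 libraries, and because each read is a tag near the end of a transcript they are compared between libraries and not between genes.

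Upstream sequence is shown for 3 of the genes that the values below turn on: Cplx1 and Vamp1, which were lower in OIR, and Cplx3, a relative of Cplx1 whose change did not pass the test. Each run is the 250 bases before the RefSeq start of the gene, written 5′ to 3′ on the gene's own strand in GRCm38.p6. Cplx1 is at chr5:108550028-108550277 on the minus strand, Cplx3 at chr9:57606282-57606531 on the minus strand and Vamp1 at chr6:125215331-125215580 on the plus strand, where the last 30 bases of the Vamp1 run already lie within an annotated Vamp1 transcript. Capitals mark the hypoxia response element core ACGTG on either strand, and in Cplx3 the whole CACGTG, which contains the core on both strands and is also an E-box.
Cplx1: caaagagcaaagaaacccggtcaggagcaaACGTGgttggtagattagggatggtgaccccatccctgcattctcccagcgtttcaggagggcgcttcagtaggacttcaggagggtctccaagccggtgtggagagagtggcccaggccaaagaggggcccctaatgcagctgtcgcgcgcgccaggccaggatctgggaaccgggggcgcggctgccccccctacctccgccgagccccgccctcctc
Cplx3: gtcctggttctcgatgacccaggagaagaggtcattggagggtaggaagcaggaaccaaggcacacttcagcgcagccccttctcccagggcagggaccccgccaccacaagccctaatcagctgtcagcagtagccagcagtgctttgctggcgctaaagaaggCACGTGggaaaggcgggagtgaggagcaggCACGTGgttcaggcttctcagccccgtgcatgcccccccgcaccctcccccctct
Vamp1: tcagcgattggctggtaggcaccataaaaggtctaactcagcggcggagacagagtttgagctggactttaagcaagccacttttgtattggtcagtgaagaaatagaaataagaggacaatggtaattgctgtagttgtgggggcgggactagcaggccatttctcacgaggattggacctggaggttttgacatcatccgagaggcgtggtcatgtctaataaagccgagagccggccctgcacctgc
The ACGTG core stood once in the Cplx1 run, 220 bases before the start, at positions 54 and 84 before the start in the Cplx3 run, and nowhere in the Vamp1 run. It was present in 2 of the 8 windows of the 10 genes, those of Cplx1 and Cplx3, and in 16.6% of all 32851 RefSeq windows of this length. RefSeq windows were at hand for 7 of the 10 genes (8 windows), and of the other motifs searched on both strands, the photoreceptor factor core TAATCC was found in Syp only, against 6.25% of all windows, while the cyclic AMP response element TGACGTCA (1.55% of all windows) and the REST partial site TTCAGCACC (0.301%) were in 0 of the 8. For the hypoxia response element ACGTG alone was searched, so a run without it may hold another spelling of the core. A match is a string of letters and was not tested as a binding site.

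The question of the first comparison was how OIR changed the retina of C57BL/6 mice. In the WT libraries, 4 of the 10 genes were lower in OIR in edgeR's quasi-likelihood test with Benjamini-Hochberg adjustment over 22853 genes (Cplx1, Cplx2, Vamp1 and Syp), where 2.29% of all genes tested were lower, and 0 of the 10 were higher, where 1.58% were. At an unadjusted p under 0.05 the test gave 6 of the 10, where 12.6% of all genes were in either direction, and DESeq2 called 4, where it called 5.05% of the genes it adjusted. Without WT normoxia replicate 1 the count of calls was 2 (Cplx1 and Vamp1), and without WT OIR replicate 3 it was 6, with Cplx3 and Snap25 added. For fits that left out 1 library, here and below, the share of all genes called was not counted. Their counts therefore cannot be set against all genes. The WT OIR and normoxia libraries did not overlap for 6 of the 10, all of them lower in OIR (the 4 above, Snap25 and Syt1), against 8.16% of all genes lower without overlap. The median log2 fold change of the 10 was -0.32, and that of all genes tested was 0.04. In the Casp1 KO libraries, Cplx1 was the 1 gene of the 10 that was lower (2.03% of 22387 genes tested were), and 0 were higher, where 2.61% of all genes were. In these libraries 3 of the 10 were lower without overlap (Cplx1, Cplx2 and Vamp1; 8.58% of all genes) and 1 was higher without overlap (Vamp2; 8.56% of all genes). At an unadjusted p under 0.05 these libraries gave 6 of the 10, where 13.6% of all genes were in either direction. Of the 6, Cplx1, Cplx2 and Vamp1 were lower and Cplx4, Vamp2 and Syp were higher. DESeq2 called 1, where it called 6.45%. The count was 2 without Casp1 KO OIR replicate 1, with Vamp1 added, and 2 without Casp1 KO OIR replicate 2, with Cplx4 added as higher. Their median log2 fold change was 0.02, beside -0.002 for all genes.

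**Figure D1:**
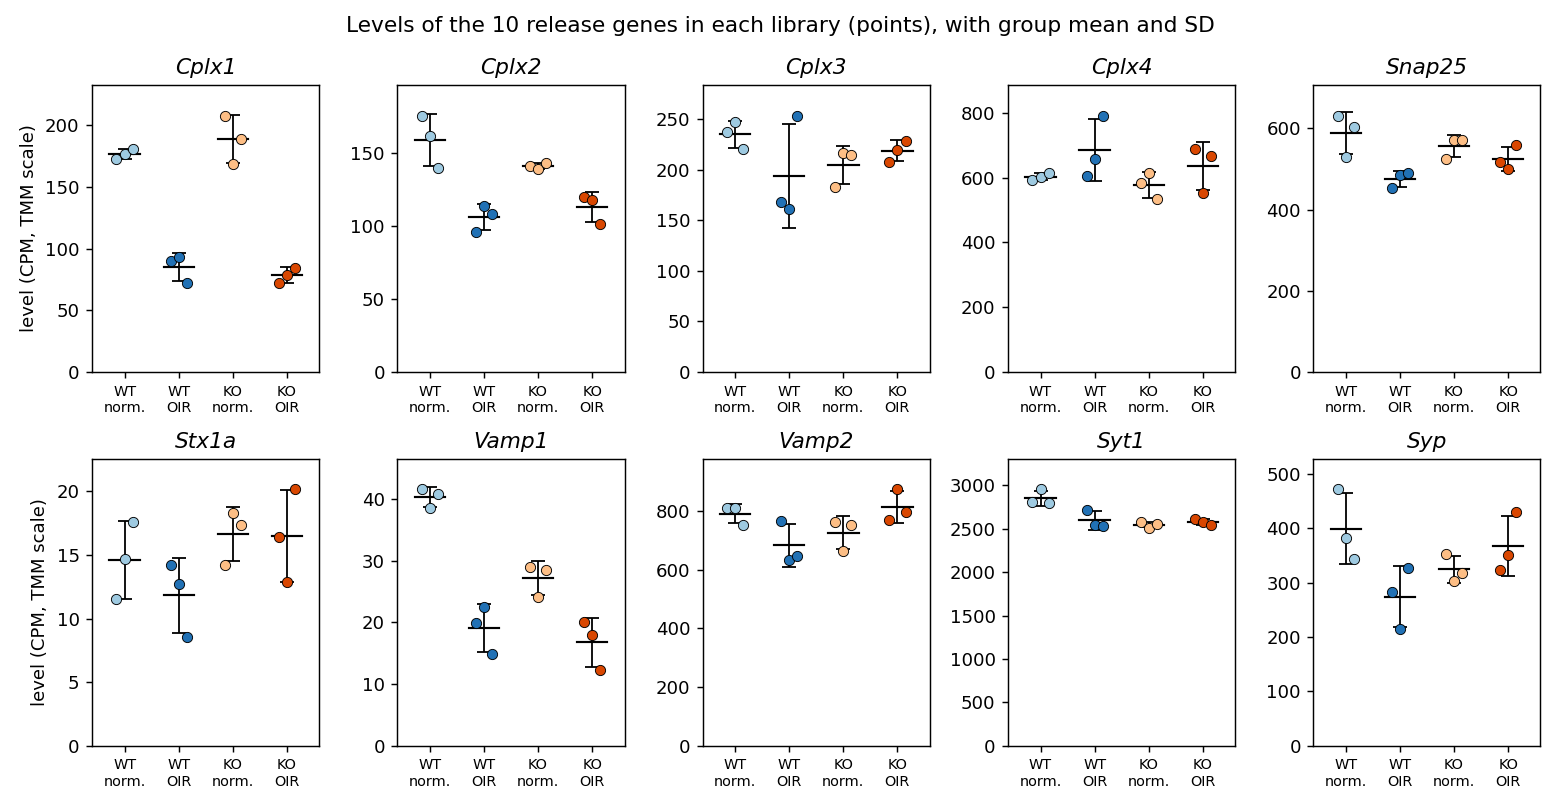
Level of each of the 10 release genes in CPM (y axis, from 0) in the 4 groups of 3 libraries; points are libraries, horizontal lines are group means and bars are SDs. Cplx1 in the OIR libraries lay between 72.0 and 93.5 CPM, below every normoxia library of either label (168.8 to 207.8 CPM), whereas for Cplx4 the OIR libraries (552.3 to 791.2 CPM) overlapped those in normoxia.

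Cplx1 encodes complexin 1, a complexin of conventional synapses, and lies at 5:108518554-108550024 on the minus strand. Its level in the WT normoxia libraries was 172.5, 176.7 and 180.5 CPM, and in the WT OIR libraries it was 89.9, 93.5 and 72.2 CPM. The Casp1 KO normoxia libraries held 207.8, 168.8 and 189.3 CPM, and the Casp1 KO OIR libraries 72.0, 79.1 and 84.5 CPM. The normoxia and OIR libraries were thus well apart under both labels, and the labels overlapped within each condition. The group means were 188.7 ± 19.5 in Casp1 KO normoxia, 176.5 ± 4.01 in WT normoxia, 85.2 ± 11.4 in WT OIR and 78.5 ± 6.26 CPM in Casp1 KO OIR (SD, n = 3 each), so that the neighbours within a condition did not differ beyond their spread. The log2 fold change with OIR was -1.06 in WT (SE 0.144, adjusted p = 9.953e-11 by edgeR's quasi-likelihood test), at position 41 of all genes by p. In Casp1 KO it was -1.25 (SE 0.111, adjusted p = 1.893e-26 in the same test), at position 16. Leaving out any 1 library kept the call under both labels, with values from -1.13 to -0.95 in WT and from -1.33 to -1.18 in Casp1 KO. The difference between the labels was -0.21 (95% interval -0.57 to 0.14, adjusted p = 0.817 for the interaction in edgeR's test).

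Cplx2 (13:54371349-54383917, plus strand) encodes complexin 2, which shares the conventional synapse with complexin 1. WT normoxia libraries held 175.5, 161.4 and 139.6 CPM, and WT OIR libraries 96.0, 114.0 and 108.3 CPM. Casp1 KO normoxia libraries held 140.8, 138.9 and 143.4 CPM, and Casp1 KO OIR libraries 119.8, 117.8 and 101.4 CPM. Every OIR library lay below every normoxia library, although by less than for Cplx1. The log2 fold change was -0.59 in WT (SE 0.143, adjusted p = 0.00207 by edgeR's quasi-likelihood test). Without WT normoxia replicate 1, the highest of its group, it was -0.52 with an adjusted p of 0.0714 in that test. In Casp1 KO it was -0.31 (95% interval -0.52 to -0.09) and did not pass (adjusted p = 0.0943, edgeR). In order of mean level the groups were WT normoxia, Casp1 KO normoxia, Casp1 KO OIR and WT OIR, at 158.8 ± 18.1, 141.0 ± 2.31, 113.0 ± 10.1 and 106.1 ± 9.19 CPM, and the first pair and the last pair overlapped. The interaction was 0.26 (95% interval -0.09 to 0.62, adjusted p = 0.707, edgeR).

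Cplx3 (9:57599992-57606281, minus strand), the complexin found at ribbon synapses and in amacrine cells, gave 237.1, 247.0 and 220.9 CPM in WT normoxia and 167.7, 161.1 and 253.5 CPM in WT OIR. The WT OIR value of replicate 3 was the highest of all 12 libraries and those of replicates 1 and 2 were the lowest. In Casp1 KO normoxia the libraries held 182.7, 216.4 and 214.4 CPM, and in Casp1 KO OIR 207.9, 219.9 and 228.5 CPM, which overlapped. The WT fold change depended on that 1 library: it was -0.29 on the log2 scale with all libraries (SE 0.132, adjusted p = 0.307 by edgeR's quasi-likelihood test) and -0.53 without WT OIR replicate 3 (adjusted p = 0.00028). In Casp1 KO it was 0.11 (SE 0.0937, adjusted p = 0.61). The interaction was 0.37 (SE 0.164, adjusted p = 0.385, edgeR) with all libraries and 0.62 (adjusted p = 0.00295) without WT OIR replicate 3. The group means of 235.0 ± 13.2 (WT normoxia), 218.8 ± 10.4 (Casp1 KO OIR), 204.5 ± 18.9 (Casp1 KO normoxia) and 194.1 ± 51.5 CPM (WT OIR) lay closer together than the libraries of WT OIR did among themselves.

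Cplx4 encodes the complexin of photoreceptor ribbons. Its libraries held 593.4, 602.3 and 613.6 CPM in WT normoxia and 604.9, 657.5 and 791.2 CPM in WT OIR. Under the Casp1 KO label they held 583.6, 613.2 and 535.6 CPM in normoxia and 689.3, 552.3 and 665.3 CPM in OIR. The groups overlapped in both cases. Its fold changes did not pass: they were 0.17 in WT (95% interval -0.06 to 0.40, adjusted p = 0.554, edgeR) and 0.15 in Casp1 KO (0.004 to 0.30, adjusted p = 0.344, edgeR), and the second became 0.23 with an adjusted p of 0.0427 without Casp1 KO OIR replicate 2. From the highest mean to the lowest the groups were WT OIR (684.5 ± 96.1 CPM), Casp1 KO OIR (635.6 ± 73.2), WT normoxia (603.1 ± 10.1) and Casp1 KO normoxia (577.5 ± 39.2), with each neighbour within the spread of the next.

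The make-up of the complexin reads held more of the ribbon forms in the OIR libraries of both labels. Such a share also rises where Cplx1 and Cplx2 fall. With all libraries, neither Cplx3 (-0.29 in WT and 0.11 in Casp1 KO) nor Cplx4 (0.17 and 0.15) was called higher in OIR. Cplx3 and Cplx4 together took 70.5%, 71.5% and 72.3% of the reads of the 4 complexins in the WT normoxia libraries and 80.6%, 79.8% and 85.3% in the WT OIR libraries. In the Casp1 KO libraries they took 68.7%, 73.0% and 69.3% in normoxia and 82.4%, 79.7% and 82.8% in OIR. Every OIR library lay above every normoxia library. The means were 71.4% ± 0.906 in WT normoxia, 81.9% ± 2.96 in WT OIR, 70.3% ± 2.30 in Casp1 KO normoxia and 81.6% ± 1.69 in Casp1 KO OIR (SD, n = 3 each), given as a description with no test, and the WT OIR mean was 80.2% without replicate 3. The exact (Clopper-Pearson) 95% binomial interval of the lowest library ran from 67.6% to 69.9% and that of the highest from 84.4% to 86.1%; such intervals cover counting error only. Cplx1 alone went from 15.1% ± 0.519 to 8.13% ± 1.94 of the complexin reads in WT and from 16.99% ± 1.95 to 7.53% ± 0.813 in Casp1 KO.

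**Figure D2:**
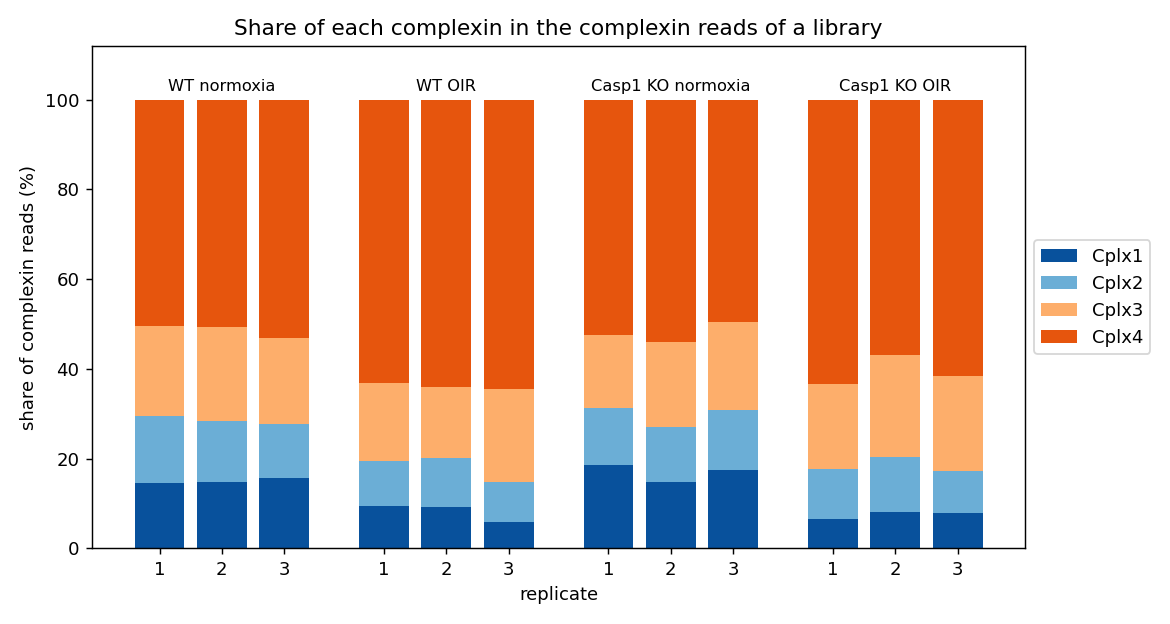
Share of each complexin (%, stacked to 100) in the reads of the 4 complexins in each of the 12 libraries, by group and replicate. The dark blue Cplx1 part is 14.6% to 18.6% in the normoxia libraries and 5.89% to 9.38% in the OIR libraries, and the 2 orange parts together (Cplx3 and Cplx4) take 79.7% to 85.3% in the OIR libraries.

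In bulk retina, fewer cells of a type and less RNA per cell cannot be told apart, and the retinal ganglion cell markers moved with Cplx1 under both labels, whereas the amacrine cell markers were lower in OIR in the WT libraries and not in the Casp1 KO libraries. The 6 retinal ganglion cell markers together gave 1812 to 2008 CPM in WT normoxia and 931.5 to 1186 CPM in WT OIR, and 2020 to 2178 CPM in Casp1 KO normoxia and 1172 to 1236 CPM in Casp1 KO OIR. Of these markers 4 of 6 were lower in WT OIR and 3 of 6 in Casp1 KO OIR in edgeR's test, where 2.29% and 2.03% of all genes were. Most of the sum was Nefl, at a mean of 1319 CPM in WT normoxia and 700.6 in WT OIR. In Casp1 KO the Nefl means were 1437 CPM in normoxia and 750.9 in OIR. Rbpms (-0.25 in WT and -0.16 in Casp1 KO) and Pou4f2 (-0.60 and -0.47) were not called under either label. Pou4f1 was called in WT (-0.46) and not in Casp1 KO (-0.29). The 6 amacrine cell markers gave 521.6 to 566.0 CPM in WT normoxia, 348.7 to 431.4 in WT OIR, 412.0 to 447.4 in Casp1 KO normoxia and 447.4 to 494.6 CPM in Casp1 KO OIR, and 3 of 6 were lower in WT OIR. In Casp1 KO OIR edgeR and DESeq2 each called 0 of these 6, with 2 at an unadjusted p under 0.05 and a median log2 fold change of 0.10. The 4 horizontal cell markers together were at 153.3 to 156.6 CPM in WT normoxia and at 102.1 to 124.3 CPM in the other groups. Calb1 was the 1 of the 4 called lower in OIR, under both labels (-0.85 in WT and -0.54 in Casp1 KO), where 2.29% and 2.03% of all genes were. Lhx1, Onecut1 and Onecut2 were not called under either label, with values from -0.34 to 0.001 in WT and from 0.11 to 0.45 in Casp1 KO. The rod markers (31990 to 32340 CPM in WT normoxia and 29610 to 34590 in WT OIR) and the bipolar cell markers (805.6 to 912.0 and 757.8 to 876.5 CPM) overlapped in WT. In Casp1 KO both sums were higher in OIR, with rod markers from 30090 to 31350 CPM in normoxia and from 32760 to 35070 in OIR and bipolar cell markers from 682.2 to 713.1 and from 764.7 to 771.5 CPM, and 3 of 6 rod markers were called higher there, where 2.61% of all genes were. The 5 Müller glia markers gave 1800 to 1919 CPM in WT normoxia, 1387 to 1413 in WT OIR, 1251 to 1423 in Casp1 KO normoxia and 1857 to 1884 CPM in Casp1 KO OIR, so that their sum was lower in OIR in WT and higher in OIR in Casp1 KO. The markers did not all move with the sum in WT. There edgeR called 3 of 5 lower in OIR and 1, Vim, higher (0.97), where 2.29% and 1.58% of all genes were. In Casp1 KO OIR 4 of 5 were called higher, where 2.61% of all genes were. The sum of the 6 cone markers overlapped in WT (1502 to 1511 CPM in normoxia and 1461 to 1654 in OIR) and was higher in OIR in Casp1 KO (1472 to 1500 and 1543 to 1693 CPM). Arr3 was called lower in OIR under both labels (-0.62 in WT and -0.59 in Casp1 KO), and in WT it was the 1 cone marker called. In Casp1 KO OIR 2 of 6 were called higher and 1 lower, where 2.61% and 2.03% of all genes were. The sum of the 5 microglia markers was higher in OIR under both labels. It ran from 45.5 to 59.0 CPM in WT normoxia and from 70.8 to 87.6 in WT OIR. In Casp1 KO it ran from 41.4 to 53.6 CPM in normoxia and from 70.9 to 92.9 in OIR. C1qa was the 1 of the 5 called, higher under both labels, where 1.58% and 2.61% of all genes were. The others were not called, and P2ry12 went the other way in Casp1 KO (-0.52). Of all 48 markers, the microglia markers included, none was at 0 in any group, and their part in the values of the release genes was not tested.

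Snap25 (2:136713453-136782428, plus strand) encodes SNAP-25, which gives a pair of helices to the SNARE bundle. The WT normoxia libraries held 631.0, 529.6 and 603.4 CPM and the WT OIR libraries 453.5, 484.4 and 488.8 CPM, all lower. The Casp1 KO libraries held 525.5, 571.4 and 570.9 CPM in normoxia and 517.8, 499.3 and 557.8 CPM in OIR, which overlapped. The WT log2 fold change of -0.32 (SE 0.120) did not pass (adjusted p = 0.138, edgeR) although its groups did not overlap, and was -0.33 with an adjusted p of 0.0103 without WT OIR replicate 3. In Casp1 KO the value was -0.07 (95% interval -0.22 to 0.08, adjusted p = 0.716, edgeR). The group means ran from 588.0 ± 52.4 in WT normoxia through 555.9 ± 26.4 and 525.0 ± 29.9 in the Casp1 KO groups (normoxia, then OIR) to 475.6 ± 19.2 CPM in WT OIR, and of the neighbours in this order the last pair alone did not overlap.

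Stx1a (5:135023482-135051100, plus strand), which encodes syntaxin 1A of the plasma membrane, was the scarcest of the 10 in reads, with 47 to 330 reads in a library. Its levels were 11.5, 14.7 and 17.6 CPM in WT normoxia, 14.2, 12.7 and 8.54 CPM in WT OIR, 14.2, 18.3 and 17.4 CPM in Casp1 KO normoxia and 16.5, 12.9 and 20.2 CPM in Casp1 KO OIR. The means were 16.6 ± 2.14 (Casp1 KO normoxia), 16.5 ± 3.62 (Casp1 KO OIR), 14.6 ± 3.03 (WT normoxia) and 11.8 ± 2.93 CPM (WT OIR). Neighbouring groups overlapped, and a change was not detectable at this depth. The log2 fold change was -0.32 in WT (95% interval -0.94 to 0.30) and 0.01 in Casp1 KO (-0.53 to 0.55), and the sign of the second turned with other scalings.

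Vamp1 encodes synaptobrevin 1, a vesicle SNARE found in a subset of neurons, and lies at 6:125215551-125245964 on the plus strand, where Tapbpl, Cd27 and Mir8113 overlap it on the other strand. Its level was 41.6, 38.6 and 40.9 CPM in WT normoxia and 19.8, 22.5 and 14.9 CPM in WT OIR. In the Casp1 KO libraries it was 29.0, 24.1 and 28.5 CPM in normoxia and 20.01, 17.96 and 12.3 CPM in OIR. Under both labels Vamp1 was lower in each OIR library than in any in normoxia, and the Casp1 KO normoxia libraries lay between WT normoxia and WT OIR without touching either. The WT log2 fold change was -1.09 (SE 0.224, adjusted p = 0.000124 by edgeR's quasi-likelihood test) and passed without any 1 library, from -1.23 to -0.93. In Casp1 KO it was -0.69 (SE 0.240, adjusted p = 0.0750, edgeR), or -0.85 with an adjusted p of 0.0455 without Casp1 KO OIR replicate 1. The interaction, 0.38 with a 95% interval of -0.26 to 1.02, did not pass (adjusted p = 0.823, edgeR). The means were 40.3 ± 1.56 in WT normoxia, 27.2 ± 2.69 in Casp1 KO normoxia, 19.1 ± 3.84 in WT OIR and 16.8 ± 3.97 CPM in Casp1 KO OIR, of which the last pair overlapped.

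Vamp2 (11:69088490-69092384, plus strand) encodes synaptobrevin 2, the main vesicle SNARE of the brain and retina. It held 810.4, 808.7 and 752.5 CPM in WT normoxia and 766.7, 632.6 and 647.9 CPM in WT OIR. In Casp1 KO it held 763.9, 662.0 and 753.2 CPM in normoxia and 768.6, 873.3 and 796.6 CPM in OIR. The WT groups overlapped, and the Casp1 KO OIR libraries lay above those in normoxia by a margin smaller than the spread within a group. The log2 fold changes were -0.22 in WT (95% interval -0.45 to 0.005) and 0.18 in Casp1 KO (0.04 to 0.32), with adjusted p-values of 0.412 and 0.178 in edgeR's test. The interaction of 0.37 (SE 0.137) had an adjusted p of 0.209 in the same test. The means were 812.8 ± 54.2 (Casp1 KO OIR), 790.5 ± 32.9 (WT normoxia), 726.4 ± 56.0 (Casp1 KO normoxia) and 682.4 ± 73.4 CPM (WT OIR), with overlap between neighbours.

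Syt1 (10:108497650-109010982, minus strand) encodes synaptotagmin 1, the calcium sensor of fast release. It gave 2803, 2953 and 2796 CPM in WT normoxia, above the 2721, 2538 and 2534 CPM of WT OIR, the 2575, 2514 and 2554 CPM of Casp1 KO normoxia and the 2608, 2573 and 2549 CPM of Casp1 KO OIR. The WT normoxia libraries were thus the highest 3 of the 12 and the other 3 groups overlapped. The WT log2 fold change was -0.14 (95% interval -0.35 to 0.06, adjusted p = 0.572 by edgeR's quasi-likelihood test) and the Casp1 KO one was 0.03 (-0.09 to 0.14, adjusted p = 0.849). The 2851 ± 88.8, 2598 ± 107, 2577 ± 29.9 and 2548 ± 30.8 CPM of WT normoxia, WT OIR, Casp1 KO OIR and Casp1 KO normoxia are the narrowest range of group means, relative to their size, in the set.

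Syp (X:7638471-7653256, plus strand; Gm14703 overlaps it on the other strand) encodes synaptophysin, an abundant membrane protein of the vesicle that binds synaptobrevin. Its level was 471.2, 382.6 and 343.1 CPM in WT normoxia and 282.6, 213.9 and 326.0 CPM in WT OIR. Under the Casp1 KO label it was 351.9, 302.1 and 318.3 CPM in normoxia and 323.3, 350.0 and 429.4 CPM in OIR. The WT groups were separate and the Casp1 KO groups overlapped, with the Casp1 KO OIR mean (367.6 ± 55.2 CPM) above that in normoxia (324.1 ± 25.4) and the WT OIR mean (274.2 ± 56.5) below that in normoxia (399.0 ± 65.6). The log2 fold change was -0.55 in WT (SE 0.126, adjusted p = 0.00083 by edgeR's quasi-likelihood test) and 0.19 in Casp1 KO (SE 0.0833, adjusted p = 0.22). Ordered by mean level (WT normoxia, Casp1 KO OIR, Casp1 KO normoxia, WT OIR), every pair of neighbouring groups overlapped. The WT call was lost without WT normoxia replicate 1 (-0.42, adjusted p = 0.142), without WT OIR replicate 2 (-0.40, adjusted p = 0.1) and, narrowly, with a stricter filter on low counts (adjusted p = 0.0501).

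The effect of OIR differed between the labels for Syp, the 1 gene of the 10 for which the interaction passed. Its interaction was 0.72 on the log2 scale (SE 0.152, adjusted p = 0.000725 by edgeR's quasi-likelihood test), at position 64 of 24484 genes, where 0.604% of all genes had a positive and 0.527% a negative interaction past the threshold. Leaving out any 1 of the 12 libraries kept it past the threshold, from 0.57 to 0.87, and the stricter filter gave 0.72 with an adjusted p of 0.058. Without WT OIR replicate 3 the interaction passed for 2 of the 10, Syp and Cplx3. Over the 10 genes the median interaction was 0.28, beside -0.04 for all genes. The amacrine cell markers moved with it, 3 of 6 having a positive interaction past the threshold, as did 2 of 5 Müller glia and 4 of 4 oligodendrocyte markers; their part in the Syp value was not tested.

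**Figure D3:**
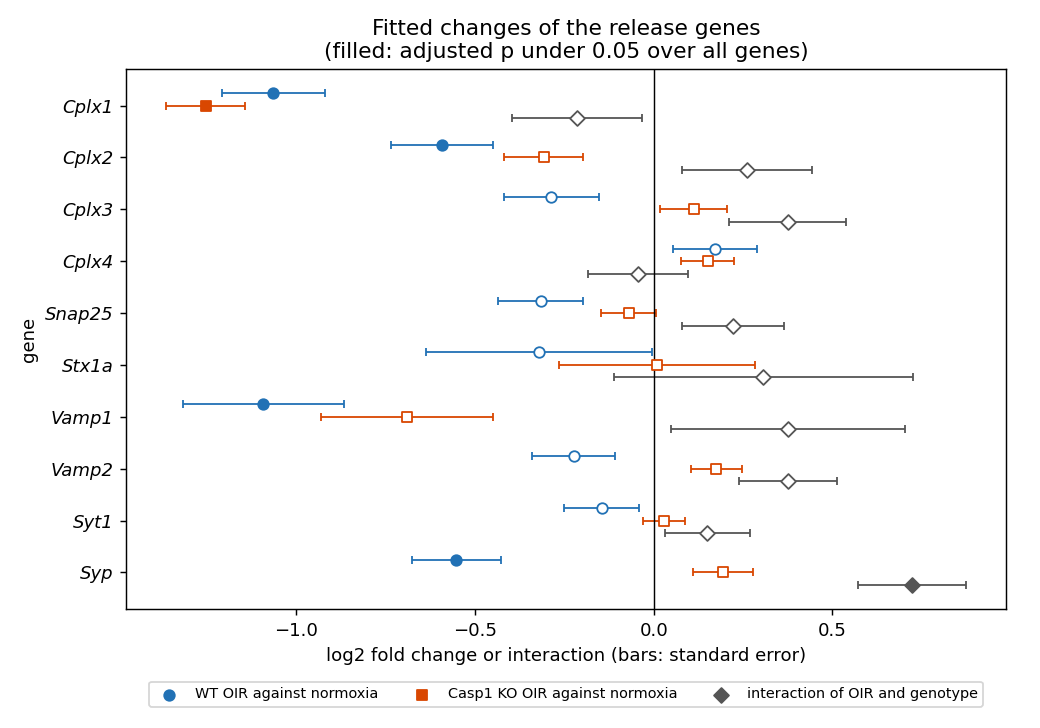
Log2 fold change with OIR in the WT libraries (circles) and the Casp1 KO libraries (squares) and the interaction of OIR and genotype (diamonds) for each release gene; bars are standard errors and filled symbols have an adjusted p under 0.05. Cplx1 is far to the left under both labels (-1.06 and -1.25), and Syp is the 1 gene with a filled diamond (0.72).

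The next question was whether the labels differed under the same condition. In normoxia 1 of the 10 was lower in the Casp1 KO libraries, which was Syp, where 0.56% of 22480 genes tested were lower. Its log2 fold change was -0.29 (SE 0.0799, adjusted p = 0.0299 by edgeR's quasi-likelihood test), its groups overlapped, and the call did not hold in DESeq2 (adjusted p = 0.067), with the stricter filter (0.0968) or without WT normoxia replicate 1 (-0.16, adjusted p = 0.655), Casp1 KO normoxia replicate 2 (0.307) or Casp1 KO normoxia replicate 3 (0.209). Lower in Casp1 KO normoxia without overlap were 3 of the 10, against 6.53% of all genes. These were Vamp1 (-0.56, adjusted p = 0.169 in edgeR and 0.0339 in DESeq2), Syt1 (-0.16, adjusted p = 0.181 and 0.0129) and Cplx3 (-0.20, adjusted p = 0.472 in edgeR). The 4 oligodendrocyte markers, which belong to the optic nerve more than to the mouse retina, gave 187.8 to 240.3 CPM in WT normoxia and 22.97 to 38.2 CPM in the 9 other libraries, and all 4 of them were lower in Casp1 KO than in WT normoxia and in WT OIR than in WT normoxia; the part of this difference in the values of the release genes was not tested.

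In OIR, 0 of the 10 differed between the labels in edgeR's quasi-likelihood test, where 0.575% of 22774 genes did in either direction; 2 of the 10 had an unadjusted p under 0.05, as did 8.36% of all genes, and DESeq2 called 0, where it called 1.48%. The 10 values ran from -0.19 for Vamp1 to 0.49 for Stx1a, with a median of 0.12 beside -0.04 for all genes. Syp had 0.42 (95% interval 0.17 to 0.67, adjusted p = 0.0978, edgeR), or 0.58 with an adjusted p of 2.318e-05 without WT OIR replicate 3. Cplx3 had 0.17 (-0.09 to 0.44, adjusted p = 0.729), or 0.43 with an adjusted p of 0.0174 without that library. Snap25 and Vamp2 were higher in Casp1 KO OIR without overlap, 2 of the 10 against 5.41% of all genes, by 0.14 (adjusted p = 0.754) and 0.25 (adjusted p = 0.513, edgeR). For Cplx1 the difference was -0.12 (-0.43 to 0.20), and for Cplx2 0.09 (-0.20 to 0.38).

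The 10 genes were set beside 63 other genes of the release machinery, listed by function and all tested. In WT OIR 15 of the 63 were lower and 1 was higher, where 2.29% and 1.58% of all genes were, with a median log2 fold change of -0.27 beside 0.04 for all genes. In Casp1 KO OIR 10 were lower and 1 was higher, where 2.03% and 2.61% of all genes were, with a median of -0.16 beside -0.002. The 16 WT calls became 9 without WT normoxia replicate 1. By role, the WT calls fell on 7 of 17 synaptotagmins and other vesicle proteins, 3 of 6 vesicle transmitter transporters, 2 of 17 active zone and priming proteins, 1 of 9 SNARE proteins and their regulators, 1 of 9 vesicle recovery proteins and, 1 in each direction, 2 of 5 calcium channel subunits. The 11 calls in Casp1 KO were 5 of the vesicle proteins, 4 of the active zone proteins and 2 of the transporters, the last pair 1 in each direction. Which of these genes share cell types with the complexins was not measured.

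Rph3a, which encodes rabphilin, a vesicle protein that binds Rab3, was lower in OIR under both labels. It went from 279.0 ± 10.7 to 126.2 ± 13.2 CPM in WT (-1.16, adjusted p = 1.331e-14 by edgeR's quasi-likelihood test) and from 247.9 ± 4.49 to 133.7 ± 6.40 CPM in Casp1 KO (-0.88, adjusted p = 1.411e-16). Syt4, a synaptotagmin that does not bind calcium in the usual way, changed by -0.76 in WT (adjusted p = 2.813e-06) and by -0.60 in Casp1 KO (adjusted p = 1.011e-07). Rab3c, a small vesicle GTPase, changed by -0.77 in WT (adjusted p = 4.64e-05) and by -0.61 in Casp1 KO (adjusted p = 3.979e-05). Slc17a6, the vesicular glutamate transporter of retinal ganglion cells, changed by -0.62 in WT (adjusted p = 0.000735) and by -0.85 in Casp1 KO (adjusted p = 4.71e-13). For Syn2, which encodes synapsin 2, the values were -0.80 (adjusted p = 0.00016) and -0.95 (adjusted p = 1.272e-10). The gene that rose in Casp1 KO was Slc17a7, the glutamate transporter of photoreceptor and bipolar vesicles, from 1108 ± 61.5 to 1441 ± 238 CPM (0.39, adjusted p = 2.816e-07 in edgeR and 0.108 in DESeq2). In WT it was Cacna1f, the calcium channel of photoreceptor terminals, from 124.7 ± 14.9 to 173.0 ± 10.2 CPM (0.46, adjusted p = 0.029 in edgeR), a call that was lost in 5 of 6 fits that left out 1 library.

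**Figure D4:**
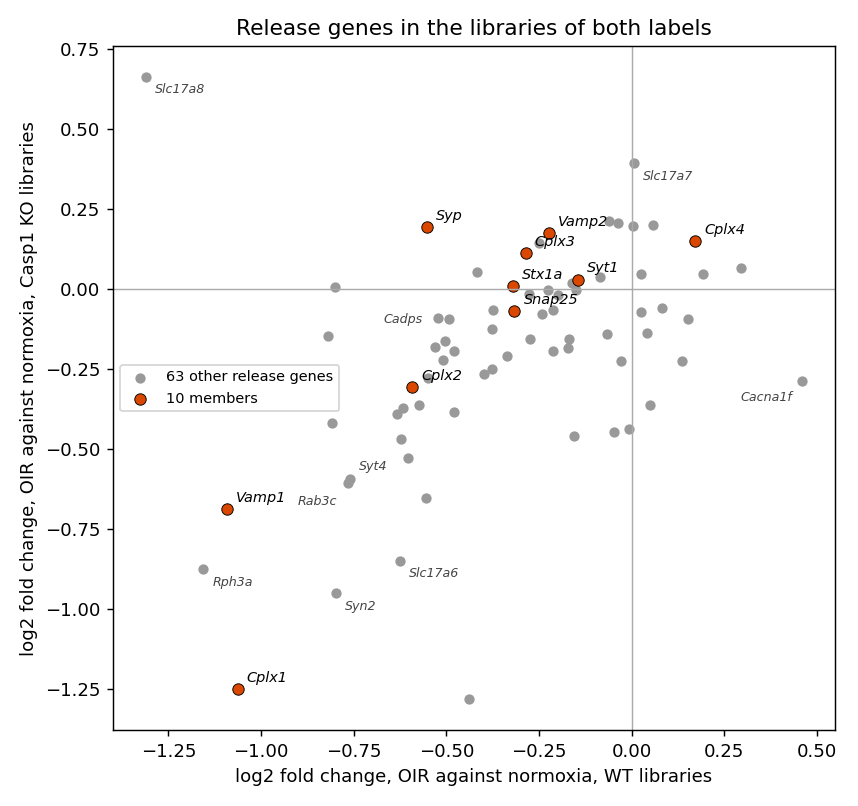
Log2 fold change with OIR in the WT libraries (x axis) against that in the Casp1 KO libraries (y axis) for the 10 release genes (orange) and 63 other release genes (grey). Cplx1, at -1.06 and -1.25, is the lowest of the 10 in Casp1 KO, and Rph3a (-1.16 and -0.88) lies near Vamp1 (-1.09 and -0.69).

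Between the labels, 3 of the 63 were lower in Casp1 KO normoxia by edgeR's test, where 0.56% of all genes were, among them Cadps, a vesicle priming factor (-0.41, adjusted p = 0.000688), and Slc17a8, the glutamate transporter of a group of amacrine cells (-1.48, adjusted p = 0.00333). The Slc17a8 call was lost without WT normoxia replicate 2 (-1.23, adjusted p = 0.132), and the Cadps call in a fit over all 12 libraries (-0.42, adjusted p = 0.053). In OIR 0 of the 63 differed by edgeR's test, where 0.575% of all genes did. An unadjusted p under 0.05 was found for 5 of the 63, as for 8.36% of all genes. DESeq2 called 0 of them, where it called 1.48% of the genes it adjusted. Without WT OIR replicate 3, 5 of the 63 passed in that comparison. The interaction passed for 2 of the 63, 1 positive and 1 negative, where 0.604% and 0.527% of all genes were. Without WT OIR replicate 3 the interaction passed for 6. It was 1.95 (SE 0.532, adjusted p = 0.0292, edgeR) for Slc17a8, which had 66 to 462 reads per library in WT normoxia and 18 to 53 in the other groups, and was 1.72 with an adjusted p of 0.168 without WT normoxia replicate 2. For Cacna1f the interaction was -0.77 (SE 0.176, adjusted p = 0.00309, edgeR).

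Genes with a profile like that of each complexin were looked for by the root-mean-square difference between centred log2(CPM + 1) values over the 12 libraries, among 9418 genes with a mean of at least 10 CPM. For Cplx1 the nearest was Nefm, which encodes the medium neurofilament, at 0.081, against a spread of Cplx1 itself of 0.589, followed by Kcnip4 (0.154), which encodes a potassium channel partner, and Nefh (0.163), which encodes the heavy neurofilament. For Cplx2 they were Sept3, encoding a neuronal septin, Adgrl1, encoding the receptor latrophilin, and Mrps14, encoding a protein of the mitochondrial ribosome, at 0.095 to 0.111, for Cplx3 Hspa14, Cds1 and Dynll2 at 0.088 to 0.109, and for Cplx4 Arl16 at 0.052 and Ssr1 at 0.068. The spreads of Cplx2, Cplx3 and Cplx4 were 0.254, 0.199 and 0.145, so that a small difference separates these genes less from the rest than it does for Cplx1. Within the 10, Vamp2 and Syt1 were nearest each other (0.121) and Cplx1 and Cplx4 farthest apart (0.685). The 12 libraries share the OIR and genotype groups, and the values are a description with no test.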

How the data were processed

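Retinal RNA of 12 libraries was prepared with the QuantSeq 3′ forward kit and sequenced. The submitters' processing notes name STAR 2.7.5a, HTSeq 0.6.1, edgeR and mm10; the annotation, the strand setting and the treatment of reads with several matches are not given in the sources used here. The deposited table holds whole-number counts per gene, which the authors made from the aligned reads without normalization; 0 entries name no gene. Groups were taken from the labels. The 10 genes and all gene lists were chosen with earlier results of these data known.

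From the counts, edgeR 4.0.16 (R 4.3.3) was run with TMM scaling, glmQLFit and glmQLFTest on genes with at least 1 read in the libraries fitted (6 libraries for each pairwise comparison, 12 for the interaction), with Benjamini-Hochberg adjustment over all genes tested and a threshold of 0.05. Intervals of a fold change are 1.96 standard errors. The functions were tested on simulated data. Named were each of the 10 genes, Casp1 as the targeted gene, for each comparison and direction the 3 other release genes with the smallest p among those past the threshold, and the 3 genes nearest to each complexin; some results under this rule are not reported here. Alternatives were DESeq2 1.42.0, its size factors in edgeR, library size alone, a stricter filter on low counts (filterByExpr), edgeR's newer quasi-likelihood method, a replicate block, 1 fit over all 12 libraries, and leaving out each library. Gene positions came from GENCODE vM21 (GRCm38) and upstream sequence from RefSeq (GRCm38.p6); Cplx4, Snap25 and Vamp2 had no window.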

Additional observations from a re-analysis of the deposited data

Results flagged for a closer look

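For Syp among the 10 genes and for 2 of the 63 other release genes, OIR moved the level differently under the WT and the Casp1 KO label, by the interaction term of edgeR's quasi-likelihood test over 24484 genes. Of all those genes, 0.604% had a positive and 0.527% a negative interaction past the threshold. For Syp, which encodes synaptophysin, the interaction was 0.72 on the log2 scale (SE 0.152, adjusted p = 0.000725). For Cacna1f, the calcium channel of photoreceptor terminals, it was -0.77 (SE 0.176, adjusted p = 0.00309), with 107.5, 132.7 and 133.9 CPM in WT normoxia, 184.6, 165.9 and 168.5 in WT OIR, 162.3, 148.4 and 160.4 in Casp1 KO normoxia and 135.0, 114.1 and 133.7 CPM in Casp1 KO OIR; without WT normoxia replicate 1 it was -0.67 with an adjusted p of 0.0506. For Slc17a8, the glutamate transporter of a group of amacrine cells, it was 1.95 (SE 0.532, adjusted p = 0.0292), and it stayed past the threshold in 6 of the 12 fits that left out 1 library. Groups of 3 libraries were not tested for outlying samples.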

How the results depend on the processing

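Between the labels in normoxia, the 1 call among the 10 genes became 0 with filterByExpr, with the replicate block and with all 12 libraries in 1 fit, and 2 in DESeq2, and the 3 calls among the 63 other release genes became 6 in DESeq2 and 1 with all 12 libraries. Between the labels in OIR, the fit over all 12 libraries called 1 of the 10 and 1 of the 63. For the interaction, filterByExpr called 0 of the 10. The share of all genes called was not counted for these alternative fits, so their counts cannot be set against all genes. Leaving out 1 library gave 2 to 6 of the 10 and 9 to 17 of the 63 for WT OIR (the lowest without WT normoxia replicate 1, the highest of the 10 without WT OIR replicate 3), 1 to 2 of the 10 for Casp1 KO OIR, 0 to 1 of the 10 for the labels in normoxia, 0 to 2 of the 10 and 0 to 5 of the 63 for the labels in OIR, and 1 to 2 of the 10 and 1 to 6 of the 63 for the interaction. The highest counts of the last 2 comparisons were without WT OIR replicate 3. Fewer samples were fitted in each, the share of all genes called was not counted for them, and other causes were not tested.

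The sign of 4 values near 0 turned. Stx1a in Casp1 KO OIR, at 0.0096, was -0.00387 with DESeq2 size factors, -0.00665 with library size alone, -0.00241 with filterByExpr, -0.00617 in DESeq2, -0.0019 with the replicate block, -0.00347 with all 12 libraries and -0.17 to 0.14 without 1 library. Without 1 library, Syt1 between the labels in OIR ran from -0.028 to 0.023, Cplx4 between the labels in OIR from -0.19 to 0.024 and the Cplx4 interaction from -0.13 to 0.073. Counted as Cplx3 over Cplx3 plus Cplx1 alone, the share was 57.1% in WT normoxia, 68.7% in WT OIR, 52.0% in Casp1 KO normoxia and 73.6% in Casp1 KO OIR. It was lower in each group than the share of Cplx3 and Cplx4 among all 4 complexins, with the same order of normoxia and OIR.

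The replicate numbers did not pair the libraries: deviations of same-numbered libraries correlated between -0.028 and 0.035. With the replicate block, Syp between the labels in normoxia was -0.29 (adjusted p = 0.059) and Cacna1f in WT OIR 0.46 (adjusted p = 0.0518, edgeR), both lost as calls.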
